A study of Mus musculus with 6 samples.

Results

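The BCL2 family members described here were 10 genes, matched by symbol in the count table and in the FPKM table. Of these, 6 encode anti-apoptotic proteins (Bcl2, Bcl2l1, Bcl2l2, Mcl1, Bcl2a1b and Bcl2a1d) and 4 encode pro-apoptotic proteins (Bcl2l11, Bid, Bak1 and Bmf). The count table named 56092 symbols, 13528 of which passed the filter on low counts, and all 10 members were among them. They were measured in RAW264.7 cells, a mouse macrophage line, transduced with a lentivirus carrying a control hairpin (shNC, 3 libraries) or a hairpin against Trem2 (shTrem2, 3 libraries). Trem2 encodes a lipid-sensing receptor of myeloid cells. In both groups the cells were first kept with IL-4 (20 ng/mL, 24 h) and afterwards, for a further 24 h, with freeze-thaw debris of TCMK-1 cells, a mouse renal tubular line, so that no library without IL-4 or without debris entered the comparison. The lines were stable puromycin-selected populations that also carried GFP. Which of the study's Trem2 hairpins the sequenced shTrem2 line carried is not given in the sources used here, and the labels do not say whether replicates were separate transductions, so the p-values measure only the spread between these libraries.

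BCL2 family proteins decide whether the outer mitochondrial membrane is opened during apoptosis. The effectors Bax and Bak1 form the pores, the anti-apoptotic proteins bind and restrain them, and BH3-only proteins such as Bim (Bcl2l11), Bid, Bmf, Puma (Bbc3) and Noxa (Pmaip1) bind the anti-apoptotic proteins or activate the effectors. In macrophages, Mcl1, Bcl2l1 and the Bcl2a1 genes are known for their part in survival, and several of them are targets of NF-kB and of growth factor signalling. Much of the control of this family is on protein stability, cleavage and binding, which RNA-seq does not measure.

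The libraries held 16054486 to 19835186 estimated counts. Trem2 counts were lower in shTrem2 (log2 fold change -0.87 ± 0.094 (SE, n = 3 per group), adjusted p = 3.4e-06, edgeR), and its FPKM, a level scaled to transcript length and depth, fell from 178 ± 28.5 to 41.7 ± 4.14 (SD, n = 3). With an offset for effective transcript length the log2 fold change of Trem2 was -2.06, so the size of its fall depended on the measure. All 7 macrophage markers were expressed, at summed levels of 5070 to 5996 CPM (counts scaled to library size) in shNC and 10080 to 11220 CPM in shTrem2. That sum followed Lyz2 (2805 ± 356 and 7365 ± 544 CPM, SD, n = 3), and of the 7 markers 5 were higher and 2, Adgre1 (log2 fold change -0.56) and Itgam (-0.78), were lower at a false discovery rate (FDR) of 0.05. Of 6 markers of the IL-4 response, 3 had no count in any library, Arg1 did not pass 0.157 CPM, and the highest count of any of them was 102. The other 2 differed in direction, Mrc1 with 0.472 CPM in shNC and 3.28 CPM in shTrem2 (2.76, adjusted p = 1.2e-05, edgeR) and Il4ra with 5.60 and 2.17 CPM (-1.37, adjusted p = 3.2e-05, edgeR). Of 14 tubular epithelial markers, 7 had no count, and the highest count of any was 12. Their summed level was 1.265 to 1.429 CPM in shNC and 0.206 to 0.366 CPM in shTrem2. Vil1, the 1 of them that was tested, was lower at 0.672 and 0.0522 CPM (-3.525, adjusted p = 4.9e-04, edgeR). Over all genes tested, 57.4% passed that FDR and 21.8% passed that and a fold change over 1.5.

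All 6 anti-apoptotic members were lower in shTrem2 (edgeR quasi-likelihood test, FDR under 0.05), and 3 of them, Bcl2l1, Bcl2a1b and Bcl2a1d, also passed the 1.5-fold limit. The background was 28.6% of all genes lower at that FDR, and 12.4% with the fold limit as well. The median log2 fold change of these 6 genes was -0.62, while that of all genes tested was -2.8e-05. Of the 4 pro-apoptotic members, Bid and Bmf were lower, Bak1 was higher and Bcl2l11 did not pass the test. No pro-apoptotic member passed the 1.5-fold limit. The background of genes higher in shTrem2 was 28.8%, or 9.46% with the fold limit, and the median of the 4 was -0.05. The groups did not overlap for 9 of the 10 members, against 63.8% of all genes, and 8 of the 10 were lower in shTrem2 without overlap, against 31.7% of all genes. As these are bulk libraries, fewer cells of a kind and less RNA per cell cannot be told apart.

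**Figure D1:**
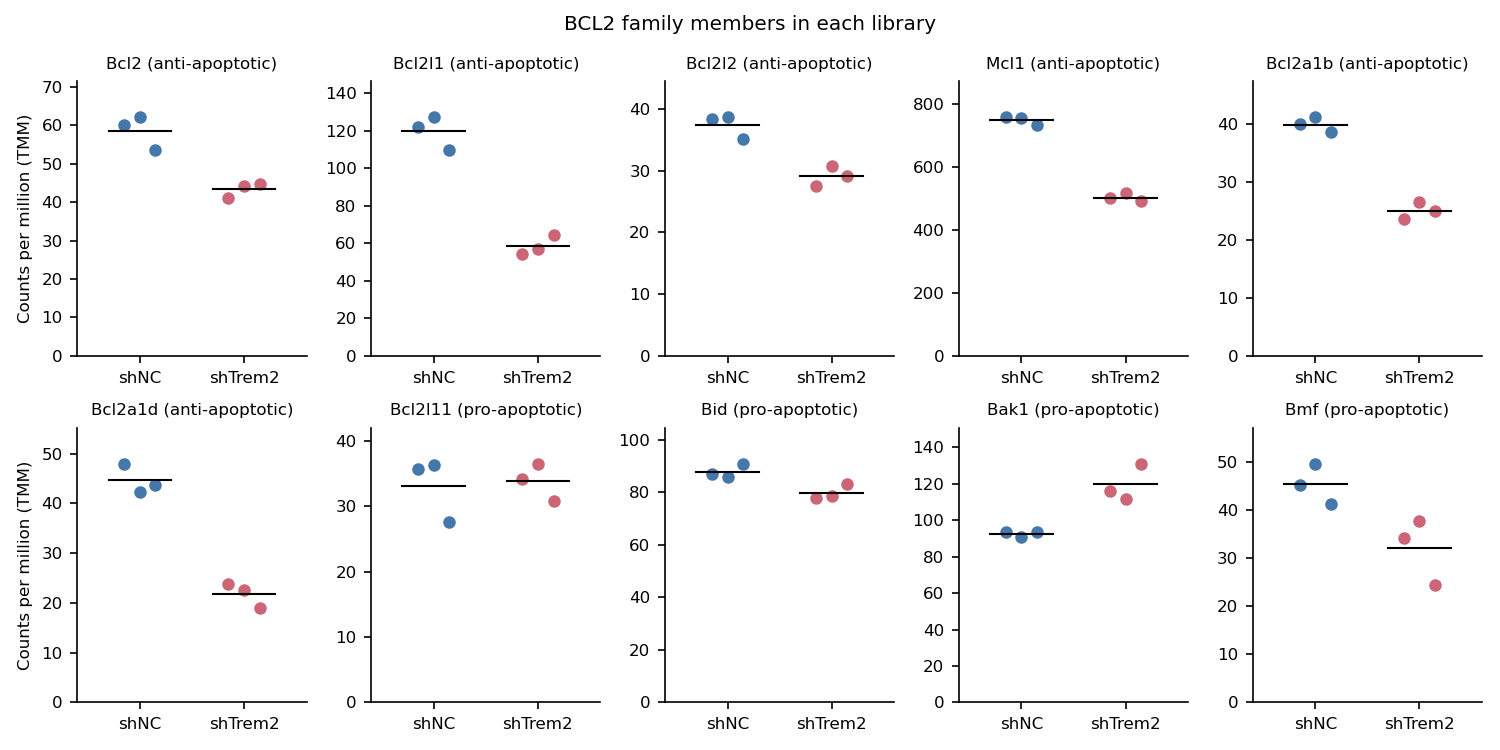
CPM (scaled by TMM) of the 10 members, 1 panel per gene, with 1 point per library and a line at each group mean, and the vertical axis starting at 0. All 6 anti-apoptotic members sit lower in the 3 shTrem2 libraries than in the 3 shNC libraries, Bak1 sits higher, and the groups overlap for Bcl2l11.

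Mcl1 (ENSMUSG00000038612, chromosome 3, 95658788 to 95663176, plus strand, GRCm38) encodes a short-lived protein that restrains Bak1 and Bim. It was the most abundant member per length in every library. The shNC libraries held 759, 756 and 734 CPM, and the shTrem2 libraries held 501, 518 and 492 CPM. The groups were far apart relative to their spread, with means of 750 ± 13.6 and 504 ± 13.0 (SD, n = 3). The log2 fold change was -0.57 ± 0.043 (SE, adjusted p = 1.1e-07, edgeR), which is 1.49-fold and so just inside the 1.5-fold limit. With library size alone as the scale it was -0.61, and on log2(FPKM + 1) it was -0.60 (limma), both past that limit. Nearly all its reads, 99.99% in shNC, lay in a single transcript row, and that row was lower as well.

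Bcl2l1 (ENSMUSG00000007659, chromosome 2, 152780668 to 152831728, minus strand, GRCm38) encodes Bcl-xL, which restrains Bax and Bak1 at the mitochondrial membrane. It had 122, 127 and 110 CPM in shNC and 54.5, 56.7 and 64.4 CPM in shTrem2. The highest shTrem2 library was thus well below the lowest shNC library. The difference was 2.04-fold (log2 fold change -1.03 ± 0.072, adjusted p = 5.4e-08, edgeR), and it stayed between -1.11 and -0.98 under the 17 other settings.

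Bcl2l1 can be transcribed from several start sites, and its 2 main transcript rows were matched to transcripts that differ in their first exon. Bcl2l1-201 starts in the distal exon at 152831603 to 152831728 and Bcl2l1-202 in the proximal exon at 152830386 to 152830666, and both hold the same coding sequence of 702 bases. Together these rows took 92.1% ± 0.633 of the gene's counts in shNC and 94.1% ± 1.73 in shTrem2 (SD, n = 3). The proximal row had 85.2, 82.1 and 71.6 CPM in shNC and 29.9, 29.1 and 41.4 CPM in shTrem2, which was lower in each of them (log2 fold change -1.25 ± 0.149, adjusted p = 0.0020, edgeR over all rows). For the distal row the values were 28.7, 34.8 and 29.97 CPM in shNC and 21.2, 23.9 and 20.6 CPM in shTrem2 (-0.51 ± 0.108, adjusted p = 0.017). The share of the distal row was 23.4% to 27.3% in shNC and 31.9% to 42.1% in shTrem2, with no overlap. The test of that difference itself did not pass with edgeR (distal row against the other rows, adjusted p = 0.28), while limma's test of the same kind gave 0.0011 and edgeR on rows with at least 10 counts in every library gave 0.037. The distal row's own fall did not pass when shNC replicate 2 (adjusted p = 0.060), shTrem2 replicate 1 (0.069) or shTrem2 replicate 3 (0.061) was left out. The 250 bases before the distal start, which overlap no annotated exon of the gene, are shown (chr2:152831729-152831978, minus strand, GRCm38.p6, RefSeq). They have no capitals, since no match to the NF-kB letters GGGNNNTTCC was found on either strand.
Bcl2l1 distal start: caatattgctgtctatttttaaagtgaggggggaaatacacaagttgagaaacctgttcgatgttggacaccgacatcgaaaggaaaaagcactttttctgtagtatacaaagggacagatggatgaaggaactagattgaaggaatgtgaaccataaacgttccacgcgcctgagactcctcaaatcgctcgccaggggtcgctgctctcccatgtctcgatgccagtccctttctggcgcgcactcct
The corresponding RefSeq window near the proximal exon (chr2:152830718-152830967) lies within an exon of another transcript and is not printed. It held 1 match, GGAAAAACCC, beginning 218 bases before the RefSeq start at 152830717. That start is not the Bcl2l1-202 start at 152830666. Whether these letters bear on the level of either row was not tested.

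**Figure D2:**
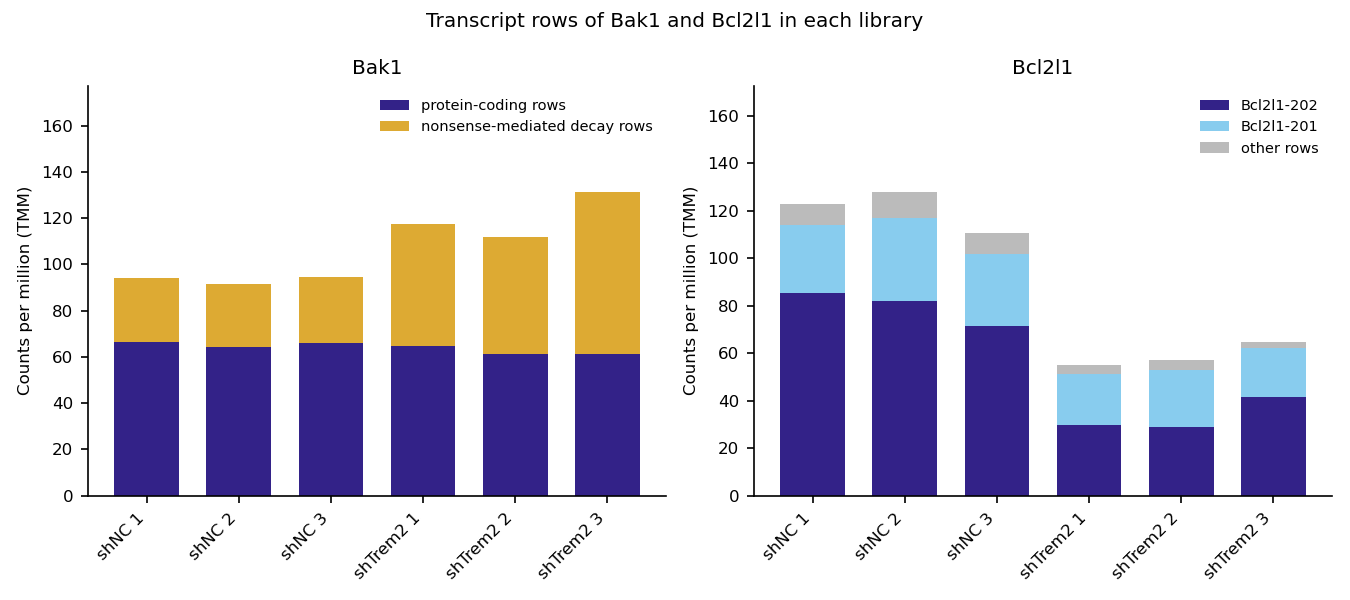
Stacked bars of CPM in each of the 6 libraries for the transcript rows of Bak1 (protein-coding rows and rows matched to transcripts annotated for nonsense-mediated decay) and of Bcl2l1 (Bcl2l1-202, Bcl2l1-201 and the other rows), with axes starting at 0. The protein-coding part of Bak1 stays between 61.1 and 66.5 CPM while the other part is higher in shTrem2, and both main parts of Bcl2l1 are lower in shTrem2.

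The Bcl2a1 genes encode A1, an NF-kB-induced relative of Bcl2 that is abundant in blood cells, and mice carry several near-identical copies. Bcl2a1d (ENSMUSG00000099974, chromosome 9, 88723285 to 88731914, minus strand) had 48.0, 42.2 and 43.7 CPM in shNC and 23.9, 22.6 and 19.0 CPM in shTrem2. Bcl2a1b (ENSMUSG00000089929, chromosome 9, 89199209 to 89207827, plus strand) had 40.0, 41.2 and 38.7 CPM in shNC and 23.7, 26.5 and 25.0 CPM in shTrem2. Neither gene's groups overlapped, and the log2 fold changes were -1.03 ± 0.086 (adjusted p = 3.2e-07) for Bcl2a1d and -0.67 ± 0.068 (adjusted p = 1.8e-06) for Bcl2a1b. The division of reads between these copies is uncertain, because their coding sequences of 519 bases each differ at 6 positions, a 98.8% identity, and 14.2% of the 150-base windows of the Bcl2a1b transcript also occur in Bcl2a1d. Summed over all Bcl2a1 symbols, which removes that uncertainty, the level was 88.5, 83.5 and 82.4 CPM in shNC and 47.9, 49.4 and 44.1 CPM in shTrem2 (log2 fold change -0.85 ± 0.060, adjusted p = 6.7e-08). Bcl2a1a, a further copy, did not pass 0.124 CPM in any library, below the level of 3 counts. The first 60 coding bases are shown because they hold 2 of the positions by which reads can be assigned to Bcl2a1b or Bcl2a1d (GENCODE M21), with those positions in capitals.
Bcl2a1b: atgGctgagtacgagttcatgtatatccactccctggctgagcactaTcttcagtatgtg
Bcl2a1d: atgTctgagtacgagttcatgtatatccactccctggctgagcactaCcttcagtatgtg
The sequences before the RefSeq starts of these copies were also alike, with 198 of 206 aligned bases the same. Both windows held the AP-1 letters TGANTCA, as TGAATCA, which 6.75% of 32851 windows of 250 bases hold. They also held the ETS letters GAGGAA, which 23.3% hold. The ETS letters were not particular to these copies, being found as well in a window of Bcl2, Bcl2l2, Bid, Bak1 and Bmf. Neither Bcl2a1 window held the NF-kB letters. Such matches describe letters and not bound sites.

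Mcl1 was the other anti-apoptotic member whose window held the NF-kB letters, found in 4.65% of all windows, and its 250 bases are shown with that match in capitals (chr3:95658471-95658720, plus strand, GRCm38.p6, RefSeq).
Mcl1: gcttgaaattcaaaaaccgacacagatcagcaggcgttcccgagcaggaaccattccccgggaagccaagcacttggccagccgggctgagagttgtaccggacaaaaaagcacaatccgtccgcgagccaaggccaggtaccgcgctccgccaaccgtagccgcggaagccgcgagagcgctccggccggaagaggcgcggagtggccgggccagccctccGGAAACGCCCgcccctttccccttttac
The match begins 28 bases before the RefSeq start at 95658721, which is not the gene start of 95658788 given above. No member's window held the STAT letters TTCNNNGAA, which 7.02% of windows hold.

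Bcl2 (ENSMUSG00000057329, chromosome 1, 106538178 to 106714274, minus strand), the founding member, which restrains the effectors at mitochondria and the endoplasmic reticulum, had 59.96, 62.1 and 53.6 CPM in shNC and 41.0, 44.2 and 44.7 CPM in shTrem2. The groups did not overlap and the log2 fold change was -0.43 ± 0.068 (adjusted p = 9.7e-05, edgeR). Its principal row, Bcl2-201, carried 98.7% of its shNC counts and was lower as well. Bcl2l2 (ENSMUSG00000089682, chromosome 14, 54883377 to 54888234, plus strand), which encodes Bcl-w, had 38.3, 38.7 and 35.1 CPM in shNC and 27.5, 30.8 and 29.1 CPM in shTrem2. These also lay apart (-0.36 ± 0.070, adjusted p = 6.4e-04), but the call did not hold on FPKM (adjusted p = 0.081 with a pseudocount of 1, limma) or with an offset for effective length (0.069). Gm20521, annotated over Bcl2l2 on the same strand, had a mean of 4.49 CPM in shNC and 2.06 CPM in shTrem2, so the reads of these 2 genes may be divided imperfectly.

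Bak1 (ENSMUSG00000057789, chromosome 17, 27019810 to 27029009, minus strand, GRCm38), a pore-forming effector, was the single member that was higher in shTrem2. It had 93.5, 90.9 and 93.7 CPM in shNC and 116, 112 and 131 CPM in shTrem2. All 3 shTrem2 libraries were above all 3 shNC libraries, with a log2 fold change of 0.37 ± 0.060 (adjusted p = 1.4e-04, edgeR). The rise lay in rows that do not carry the full coding sequence. Its main row, Bak1-202, which holds the complete coding sequence, had 65.3, 63.1 and 64.8 CPM in shNC and 64.2, 61.2 and 59.6 CPM in shTrem2 and did not pass the test (-0.06 ± 0.050, adjusted p = 0.42). Counted from its protein-coding rows alone, a choice made after seeing the data, Bak1 was at -0.08 ± 0.053 (adjusted p = 0.23), opposite in sign to the whole gene.

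The other rows of weight were 2 that matched Bak1-201 and Bak1-204, transcripts annotated for nonsense-mediated decay, a pathway that degrades RNAs with an early stop codon. Which of these rows is which could not be told apart from their lengths of 1974 and 1958 bases. Added together they had 27.5, 27.0 and 28.6 CPM in shNC and 52.7, 50.7 and 70.1 CPM in shTrem2. Their share of Bak1 counts was 29.2%, 29.6% and 30.3% in shNC and 44.9%, 45.3% and 53.4% in shTrem2. No shTrem2 library came near the shNC range. One row rose by 1.17 ± 0.220 on the log2 scale (adjusted p = 0.011) and the other by 0.92 ± 0.226 (adjusted p = 0.030), calls that did not all hold: without shNC replicate 2 they were at 0.051 and 0.094, and the second was at 0.085 to 0.090 without shNC replicate 3 or shTrem2 replicate 2 or 3. The test of row usage did not pass with edgeR (adjusted p = 0.15 and 0.73 for these rows and 0.24 for Bak1-202), while limma gave 0.0091, 0.11 and 0.0013. The same edgeR test gave 0.014, 0.19 and 0.044 when only rows with at least 10 counts in every library were kept, and 0.023, 0.99 and 0.096 without shTrem2 replicate 2. Over all members edgeR called 0 of 22 rows tested for usage, where it called 1.71% of all rows. At an unadjusted p under 0.05 it found 5 of the 22, against 8.48% of all rows, and limma called 5, against 2868 of the 28675 rows tested in all.

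The annotation separates these transcripts by short stretches, shown because each changes the reading frame (GENCODE M21, GRCm38, minus strand). Bak1-201 holds an exon of 20 bases (chr17:27021663-27021682) that Bak1-202 lacks, here in capitals between the 30 bases on either side.
Bak1-201: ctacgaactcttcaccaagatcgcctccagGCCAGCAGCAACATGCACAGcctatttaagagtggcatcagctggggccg
Bak1-202: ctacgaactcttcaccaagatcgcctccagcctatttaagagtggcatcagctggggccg
Bak1-204 instead lacks 5 bases at the start of an exon (chr17:27022873-27022877), which are in capitals in Bak1-202.
Bak1-202: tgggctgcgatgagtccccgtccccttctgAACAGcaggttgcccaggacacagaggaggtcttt
Bak1-204: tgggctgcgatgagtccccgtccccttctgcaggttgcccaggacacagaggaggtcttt
The annotated coding length is 627 bases in Bak1-202, 453 in Bak1-201 and 237 in Bak1-204. The transcripts also differ in their first exon, of 599 bases in Bak1-202 against 168 and 177, so whether the exon, the shorter junction or the 5′ end moved the estimated division of reads cannot be told apart here. Ggnbp1, which overlaps Bak1 on the opposite strand, was at a mean of 10.5 CPM in shNC and 2.76 CPM in shTrem2. The kit keeps strand, and the paper states that HISAT2 was run in an orientation-aware mode. The strand setting of the counting is not given in the sources used here, and the part of Ggnbp1 in the Bak1 rows was not tested.

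Among the BH3-only members, Bmf (ENSMUSG00000040093, chromosome 2, 118528757 to 118549687, minus strand), which is held at the cytoskeleton by a dynein light chain, had 45.2, 49.7 and 41.3 CPM in shNC and 34.3, 37.7 and 24.5 CPM in shTrem2. The groups lay apart although shTrem2 replicate 3 stood well below the other two. The log2 fold change was -0.50 ± 0.122 (adjusted p = 0.0031, edgeR), and the call was lost on log2(FPKM + 1) (0.077) and with the length offset (0.058). Bid (ENSMUSG00000004446, chromosome 6, 120891930 to 120916853, minus strand), which caspase-8 cleaves to link death receptors to mitochondria, had 87.0, 85.8 and 90.9 CPM in shNC and 78.0, 78.6 and 83.0 CPM in shTrem2. Its level fell by 9.12%, with the groups just apart (log2 fold change -0.14 ± 0.052, adjusted p = 0.036), and the call was lost under 7 of 17 other settings, with an adjusted p of up to 0.14 without shTrem2 replicate 1. Its main row, Bid-201, was at -0.16 and did not pass on its own.

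Bcl2l11 (ENSMUSG00000027381, chromosome 2, 128126038 to 128162547, plus strand) encodes Bim, which can bind every anti-apoptotic member of the family. It had 35.7, 36.2 and 27.5 CPM in shNC and 34.2, 36.5 and 30.9 CPM in shTrem2. The ranges overlapped and each group had 1 low library, and the log2 fold change of 0.03 ± 0.099 (adjusted p = 0.80) changed sign with library size alone as the scale. Its main row, Bcl2l11-205, had a mean of 29.2 CPM in shNC and 27.2 CPM in shTrem2 (-0.11, adjusted p = 0.58). A minor row, Bcl2l11-202, which has a coding length of 273 bases against 588 in Bcl2l11-205, was at 1.25, 0.613 and 0.499 CPM in shNC and 2.68, 2.41 and 2.17 CPM in shTrem2 (1.62 ± 0.417, adjusted p = 0.035). Leaving out any library except shNC replicate 1 lost the call of that row.

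Taking the 44 transcript rows of the members together, 25 passed the filter on low counts, 10 were lower and 3 were higher at an FDR of 0.05. Among all 33853 rows tested, 11.4% were lower and 11.0% higher. Of the 10 lower rows, 5 belonged to Bcl2l1. The rows of Bcl2l2 and Bmf could not be matched to single annotated transcripts.

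**Figure D3:**
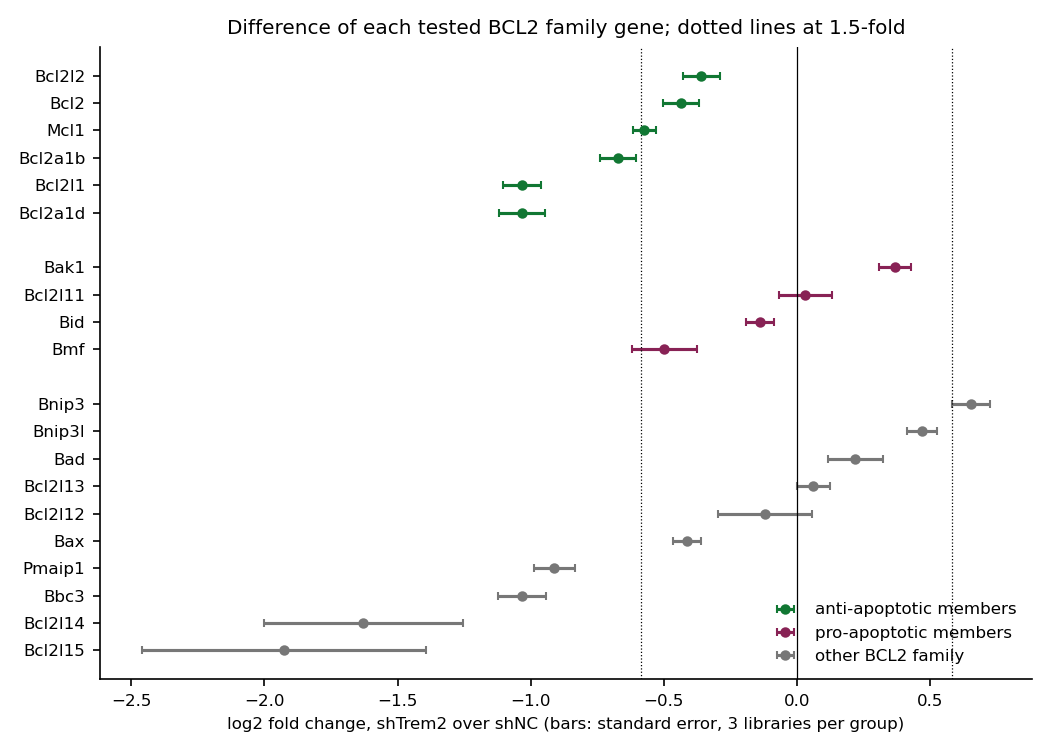
Log2 fold change of shTrem2 over shNC with its standard error (3 libraries per group) for the anti-apoptotic members, the pro-apoptotic members and the other BCL2 family genes that were tested, with dotted lines at 1.5-fold. The 6 anti-apoptotic members lie between -1.03 and -0.36, and the other family genes spread from -1.93 (Bcl2l15) to 0.65 (Bnip3).

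Of 16 other BCL2 family genes, 10 were tested, 5 were lower and 2 were higher at the FDR, and 4 lower and 1 higher also passed 1.5-fold. Over all genes tested, the shares were 28.6% lower and 28.8% higher at the FDR, and 12.4% and 9.46% with the fold limit. Bax, the second effector and the most abundant family gene per length here (370 ± 24.8 FPKM in shNC and 281 ± 12.2 in shTrem2, SD, n = 3), had 203, 210 and 229 CPM in shNC and 159, 157 and 167 CPM in shTrem2 (log2 fold change -0.41 ± 0.052, adjusted p = 1.5e-05). Bbc3, which encodes Puma, had 61.6, 63.4 and 54.1 CPM in shNC and 31.5, 31.1 and 24.8 CPM in shTrem2 (-1.03 ± 0.090). Pmaip1, which encodes Noxa, a partner of Mcl1, was at 45.3, 40.3 and 41.0 CPM in shNC and 22.0, 24.2 and 21.1 CPM in shTrem2 (-0.91 ± 0.076). Neither of these BH3-only genes had overlapping groups. Bnip3, a mitophagy receptor, was higher (0.65 ± 0.071), while Bcl2l14 (-1.63) and Bcl2l15 (-1.93) were lower at means under 1.3 CPM. Bcl2l15 lost its call on FPKM (adjusted p = 0.088) and was at -2.97 without shTrem2 replicate 1 and -1.51 without shTrem2 replicate 3. Bad, a BH3-only protein kept inactive by growth factor signalling, was at 0.22 ± 0.103 (adjusted p = 0.086).

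Per length, which allows genes to be compared, Mcl1 led in both groups with 243 ± 5.69 FPKM in shNC and 159 ± 4.02 in shTrem2 (SD, n = 3). In shNC it was followed by Bcl2a1d (83.2) and Bcl2a1b (81.5), whose ranges overlapped, then Bcl2l1 (68.8), then Bak1 (49.8) and Bid (49.3), which overlapped. Well below came Bcl2l2 (12.8) and Bmf (12.2), which overlapped, and Bcl2 (8.71) and Bcl2l11 (8.13), which did too. In shTrem2, Bak1 (64.6) stood in second place above Bcl2a1b (49.9), Bid (43.7), Bcl2a1d (39.6) and Bcl2l1 (32.7). Of these neighbours only Bid and Bcl2a1d overlapped. Counted from its protein-coding rows alone, Bak1 was at 33.0 FPKM in shNC and 30.3 in shTrem2, below the mean of Bcl2l1 in both groups. Mcl1 made up 48.8% ± 0.552 of the summed anti-apoptotic FPKM in shNC and 53.4% ± 0.0480 in shTrem2, and Bcl2l1 made up 13.8% ± 0.668 and 10.96% ± 0.488.

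The summed FPKM of the 6 anti-apoptotic members was 510, 505 and 478 in shNC and 296, 307 and 293 in shTrem2. That of the 4 pro-apoptotic members was 120, 121 and 117 in shNC and 124, 122 and 134 in shTrem2. The first sum was thus 0.600 of its shNC mean in shTrem2, and the second 1.06. The second sum includes the Bak1 rows matched to nonsense-mediated decay transcripts, estimated at 16.8 ± 0.383 FPKM in shNC and 34.3 ± 6.56 in shTrem2 (SD, n = 3). Without those rows, the pro-apoptotic sum was lower in every shTrem2 library than in any shNC library. The ratio of pro- to anti-apoptotic members was 0.236, 0.239 and 0.245 in shNC and 0.420, 0.399 and 0.459 in shTrem2. The means were 0.240 ± 0.00502 and 0.426 ± 0.0306 (SD, n = 3), 1.77-fold apart, with no overlap, and as a score over chosen members the ratio has no test.

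The size of that difference depended on which genes were counted. With Bak1 from its protein-coding rows only, the ratio was 0.206 ± 0.00342 in shNC and 0.311 ± 0.00879 in shTrem2, or 1.51-fold. With Bax added to the pro-apoptotic side it was 0.985 ± 0.0816 and 1.37 ± 0.0901, or 1.39-fold. For the 3 BH3-only members over the same denominator it was 0.140 ± 0.00297 and 0.209 ± 0.00269. In none of these versions did the groups overlap. All of them share the anti-apoptotic sum as denominator, which was 0.600 of its shNC mean in shTrem2, so they are not independent of each other. Bax over that sum was 1.26-fold higher in shTrem2, although the FPKM of Bax was 0.759 of its shNC mean. These are RNA levels and not protein levels.

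**Figure D4:**
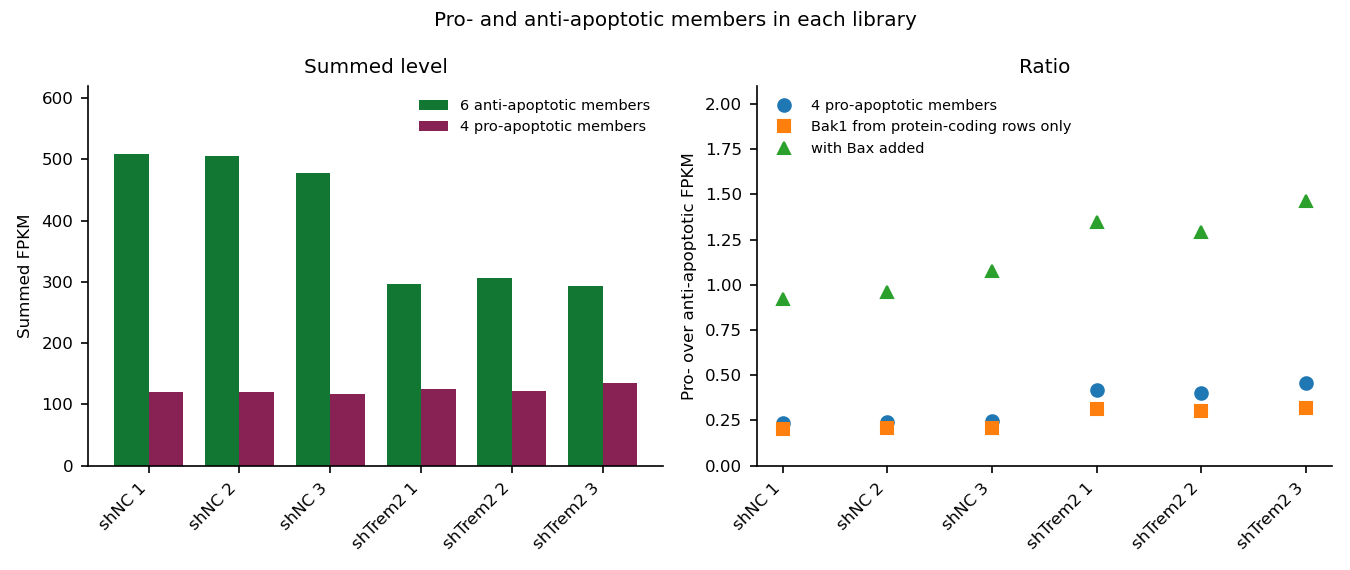
Summed FPKM of the 6 anti-apoptotic and the 4 pro-apoptotic members in each library as bars from 0, and the ratio of pro- to anti-apoptotic FPKM in each library as points for 3 choices of the pro-apoptotic genes. The anti-apoptotic sum is 478 to 510 in shNC and 293 to 307 in shTrem2, and the ratio is higher in every shTrem2 library for each choice.

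Genes that act before and after the members moved in both directions, as genes did in general, with 28.6% of all genes tested lower and 28.8% higher at the FDR. In the death receptor steps that lead to Bid, 3 of 8 genes were lower and 4 higher at the FDR. The receptor Fas fell from 9.30 ± 0.662 to 1.16 ± 0.102 CPM (SD, n = 3, log2 fold change -2.99 ± 0.181) and the receptor Tnfrsf10b from 11.3 ± 2.07 to 4.12 ± 0.981 CPM (-1.46 ± 0.187). Cflar, which encodes the caspase-8 inhibitor c-FLIP, had 361, 335 and 296 CPM in shNC and 164, 159 and 153 CPM in shTrem2 (-1.06 ± 0.064). The adaptor Fadd rose (1.09 ± 0.120), as did the receptor Tnfrsf1a (0.62 ± 0.056). Receptors lay on both sides, while Fadd rose and Cflar fell.

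Of 18 genes for the apoptosome, caspases and inhibitors of apoptosis, 5 were lower and 6 higher, with a median of -0.01, and 2 passed 1.5-fold. Of all genes tested, 28.6% were lower and 28.8% higher at the FDR, and 21.8% passed the fold limit as well. Birc3, which encodes the NF-kB-induced inhibitor cIAP2, fell (139, 148 and 138 CPM in shNC, 75.5, 79.9 and 80.1 CPM in shTrem2, -0.85 ± 0.051). Birc5, which encodes survivin, an inhibitor that also acts in mitosis, rose (45.4, 44.4 and 48.0 CPM in shNC, 81.6, 82.5 and 89.5 CPM in shTrem2, 0.88 ± 0.060). Of 15 binding partners and regulators of the members, 2 were lower and 5 higher. Foxo3, a transcription factor that can activate Bcl2l11, was lower (-0.64 ± 0.062, adjusted p = 1.3e-06).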

How the data were processed

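RNA-seq libraries of RAW264.7 cells (3 shNC, 3 shTrem2) were grouped by their labels. Per the submitters' processing notes the tools included fastp, HISAT2 and StringTie and the build GRCm39; the counting tool and annotation release are not given in the sources used here. The deposited count table holds estimated counts in 1 row per transcript, named by gene symbol alone (278369 rows, 59568 of them without a symbol), and FPKM per gene, normalised by the authors to transcript length and depth. Rows without a symbol took 0.908% to 1.12% of counts and were left out. Depth was 16054486 to 19835186 counts, and 3 counts are 0.153 to 0.189 CPM, which covers counting error only. The authors' group means were not used.

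Counts were summed per symbol, rounded, filtered (filterByExpr), scaled by TMM and tested with edgeR 4.0.16 quasi-likelihood in R 4.3.3, with Benjamini-Hochberg adjustment over all 13528 genes (or 33853 rows); calls needed an FDR under 0.05 and, where stated, a fold change over 1.5. The main fit had no replicate block. Row usage was tested with diffSpliceDGE. DESeq2 1.42.0, limma 3.58.1 on counts and on log2(FPKM + 1) or log2(FPKM + 0.1), other scalings and filters, an effective-length offset and leaving out each library were alternatives. Rows carry no transcript name. They were matched to GENCODE M21 transcripts where an assignment rebuilt the gene's FPKM within 1% in every library. For Bcl2l1 and Bid 4 assignments did so, which differed in minor rows only, and for Bak1 2 did. The best was used. Coordinates are GRCm38, the build of the reference used here, not that of the files. No 2 libraries agreed within sampling noise (chi-square per degree of freedom 2.56 to 9.92). Both tests were tested on simulated counts with known changes. At 2-fold, 92.6% of changed genes and 47.9% of changed rows were recovered. The usage test recovered 14.6% at 2-fold and 55.8% at 4-fold, so a row that did not pass it may still have changed.

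The members and the gene lists were chosen with earlier results of these data known. Named genes were the 10 members, Trem2, Bax, Bad and Bcl2a1a, and from each other list up to 6 genes with an FDR under 0.05 and a fold change over 1.5, by size; Gm20521 and Ggnbp1 were added for their overlap, and 1 gene that the rule named is not reported here. No library was excluded.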

Additional observations from a re-analysis of the deposited data

How the results depend on the processing

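Under 173 combinations of member and setting, 156 kept direction and side of the FDR threshold, 13 lost a call (Bid 7, Bcl2l2 3 and Bmf 3) and 4 reversed. The reversals were Bcl2l11 (not called) with library size only (-0.00293), without shNC replicate 3 or shTrem2 replicate 2 (-0.0873 to 0.0936 over the libraries left out), and Bak1 from its protein-coding rows (-0.0778); only for the last does the construction show the cause, the rows left out. Members called numbered 3, but 9 with no fold threshold and 3 to 5 when a library was left out, the 5 (with Mcl1 and Bmf) without shTrem2 replicate 2. They numbered 2 at a fold change over 2 and 2 with glmTreat. Calls over all genes numbered 2951, against 7763 with no fold threshold, 1339 at a fold change over 2, 1515 with glmTreat, and 2789 to 3105 with a library left out.

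For rows, calls with the fold limit numbered 9, 5 to 8 with a library left out (5 without shNC replicate 2 or shTrem2 replicate 3); at the FDR alone they numbered 13, and 7 to 11 with a library left out, 7 without shNC replicate 2 or shTrem2 replicate 3 and 8 without shTrem2 replicate 1 or 2. Rows with changed usage numbered 0, but 3 on rows with at least 10 counts in every library, 5 with limma, and 0 to 1 with a library left out, the 1 without shTrem2 replicate 2. The causes were not tested.

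Libraries with the same replicate number showed no shared deviation, with correlations of 0.00618, -0.00441 and 0.00657. With 3 libraries per group this cannot show whether they were processed in pairs, and the labels do not say. With the replicate block, 2911 genes, 3 members and 5 rows were called, 9 rows at the FDR.

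The log2 ratio of the groups' pro- to anti-apoptotic ratios was 0.83, 0.66 on CPM, 0.96 without Mcl1, 0.43 with 7 further pro-apoptotic genes, 0.70 from mean log2(FPKM + 0.1), 0.59 with Bak1 from its protein-coding rows and 0.47 with Bax (the latter pair chosen after seeing the data), and 0.77 to 0.87 with a library left out. Depth limits rows near 3 counts, 0.153 to 0.189 CPM.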
